A study of Mus musculus with 26 samples.

Results

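The potassium channel subunits described here are the mouse genes whose symbol starts with Kcn, pore-forming and auxiliary subunits alike. They were taken from 3 deposited tables by symbol alone. The rule found 38 members among 8576 transcripts in each of the tables for the transgenic lines and 44 among 9561 in the table for the knockout. RefSeq lists 94 protein-coding genes with such a symbol. Kcna3, Kcnd3, Kcng3, Kcnj12, Kcnj6 and Kcns1 were listed in the knockout table and in neither transgenic table.

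Ribosome footprints and RNA-Seq were read from the striatum of C57BL/6 mice at 3 months of age, each library from caudate putamen pooled from 3 mice of both sexes. A first cohort held GS LRRK2 TG mice, which carry a G2019S LRRK2 transgene, and GS/DA LRRK2 TG mice, whose transgene holds the D1994A change as well and is kinase dead, each with 2 libraries per assay. The labels list 1 set of 3 non-TG control libraries per assay for both lines, so these comparisons may share controls and their values are given side by side. A second cohort compared LRRK2 KO mice with WT mice, with 2 RNA-Seq and 3 footprinting libraries per group in the labels. Both transgenes are high copy number lines under a doxycycline-repressed promoter driven by CaMKII-tTA, so transgene expression was limited to cells with CaMKII promoter activity. In the LRRK2 KO mice the change is not limited to a cell type. The comparisons ask how messenger levels and translation of the channels in striatal tissue differ with the transgenes and in LRRK2 KO mice. These are bulk tissue values, so fewer cells of a type and less RNA per cell cannot be told apart.

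Potassium channels let potassium leave the cell and so set the resting potential, end each action potential and limit firing rate. Voltage-gated pores assemble as tetramers, alone or with modifier subunits and cytosolic partners that change their gating and surface delivery. Inward rectifiers hold striatal spiny neurons at their negative down state, leak channels carry background current, and calcium- or sodium-activated channels shape the pause after a spike.

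The values are the authors' group means of reads in coding sequence, normalized with the size factors of DESeq, one mean per group and assay. Translational efficiency, TE, is the log2 ratio of the footprinting mean to the RNA-Seq mean. The TE difference is TE in the genotype minus TE in its control. A transcript is called TE up or TE down where the z score of its TE difference over all transcripts of the table is at least 1.5 or at most -1.5. A change in one assay counts as past the fold where its log2 change is at least 0.5 or at most -0.5.

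Single libraries were recovered from 10 of the 12 mean columns, each of which splits into whole reads of 2 libraries for most transcripts. The split was least clean in RNA-Seq of the GS/DA table, where 81% of recurring differences between control values and 97.5% of those between genotype values fitted it, beside 100% elsewhere. In the 10 columns 97.9% to 99.9% of transcripts were resolved. In the GS table the controls did not split in this way, so that comparison has no spread among its controls. Where the labels list 3 libraries, as for the non-TG controls and for footprinting in WT and LRRK2 KO, the means that split still held 2. The recovered footprinting libraries held 2863332 to 15954039 reads, and the recovered RNA-Seq libraries 3131554 to 12878058. The columns give no replicate numbers. Control and genotype libraries were therefore matched into library pairs by how their libraries differed alike in both groups, a matching read from the values themselves. Which footprinting library comes from the same tissue as which RNA-Seq library is unknown, so each TE difference was also taken over all 4 combinations of pairs.

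The labelled genotypes and tissue were checked first. Lrrk2 footprints were 102 and 150 in the LRRK2 KO libraries and 400 and 690 in WT, and its RNA-Seq 423 and 270 beside 1278 and 733, lower in LRRK2 KO but not absent. They were 7267 and 4766 in GS/DA LRRK2 TG and 1445 and 1224 in their controls. They were 3320 and 7052 in the GS LRRK2 TG libraries, beside a control mean of 2524 in that table. That control mean lies above both control libraries of the GS/DA table, and Ttr likewise had control means of 3944 and 9125 in the GS and GS/DA tables. The control means of the tables thus do not rest on one same set of libraries in equal parts, and the genotype of the GS controls was not settled by Lrrk2, which limits every GS LRRK2 TG comparison below. The groups did not overlap in either comparison with recovered controls. Lrrk2 RNA-Seq did not set the transgenic lines apart, with 5038 and 404 in GS/DA LRRK2 TG and 5233 and 560 in the controls. Of 12 symbols marking spiny neurons, 10 were listed. The other symbols, Drd1 and Penk1, are further names of the listed Drd1a and Penk. The most abundant was Ppp1r1b, with control footprinting means of 42124 in the GS/DA table and 9040 in the LRRK2 KO table. None of the 4 endothelial markers was listed in any table.

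All members together took 0.212% of the normalized footprints and 0.254% of the normalized RNA-Seq in the non-TG control of the GS/DA table, and 0.205% and 0.273% in WT. Members with all 4 group means at 500 or above numbered 15 in the GS table, 17 in the GS/DA table and 1, Kcnab2, in the LRRK2 KO table. Levels below are control footprints per kb of coding sequence in the GS/DA table, followed where given by those in WT. The tables were normalized separately, so these 2 levels of a gene are not on one scale.

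Among voltage-gated pores, Kcnd2, which carries the dendritic A-type current, led with 1158 footprints per kb and 257 in WT. Kcna1, an axonal delayed rectifier, followed with 767 and 207. Kcna2, its usual partner in axons, had 605 and 202. The A-type subunit Kcna4 had 566 footprints per kb. Kcnc1, which lets fast-spiking interneurons repolarize quickly, had 349. The ether-a-go-go pores were at low levels, from 224 for Kcnh1 down to 69.1 for Kcnh7. The 17 voltage-gated pores held 39.8% of all member footprints in the non-TG control, and 19 held 40.1% in WT.

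Among the cytosolic auxiliary subunits, Kcnab2, Kcnip3 and Kcnip4 were abundant, while Kcnip1 and Kcnab3 had 233 and 220 footprints per kb. Kcnab2, a beta subunit that binds Kcna channels, had 3821 footprints per kb in the non-TG control and 1128 in WT, the highest of all members in each. Kcnip3 and Kcnip4, calcium-binding partners of Kcnd channels, had 1301 and 1151 per kb. The 5 auxiliary members, Kcnip1 and Kcnab3 included, held 21.4% of member footprints in the non-TG control and 24.1% in WT.

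Of the inward rectifiers, Kcnj4 was highest with 1684 footprints per kb and 337 in WT. Kcnj2, a strong rectifier like Kcnj4, had 649 and 120. The glial rectifier Kcnj10 had 646 and 119. Kcnj11, the pore of the ATP-sensitive channel, had 190, and Kcnj3, a G protein-gated subunit, had 133. The leak channel Kcnk1 had 1583 footprints per kb, and Kcnk2, a mechanosensitive and lipid-sensitive leak channel, had 539.

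Among silent subunits, which form no channel alone and modify other pores, Kcnv1 had 738 per kb, Kcnf1 480, Kcng1 280 and Kcns2 225. Of the calcium- or sodium-activated pores, the sodium-activated Kcnt1 had 332 and the large-conductance calcium-activated Kcnma1 had 285. Kcnn3, a small-conductance calcium-activated pore, had 183, its relative Kcnn2 92.9, and the second sodium-activated pore Kcnt2 59.9, the lowest of the 38 members. The lowest level in WT was that of Kcnh4, at 14.8 per kb.

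Control TE spread widely over the members. In the non-TG control of the GS/DA table it ran from -1.99 for Kcnh3, an ether-a-go-go like pore, to 1.85 for Kcnj10, with a median of 0.06 beside 0.04 over all transcripts. Kcnip4, with 1.76, and Kcnj2, with 1.49, stood next to Kcnj10. Kcnk2, with -1.69, and Kcnt2, with -1.09, stood next to Kcnh3. In WT the range was -2.83 for Kcnh3 to 0.48 for Kcnip4, with a median of -0.68 beside -0.64 over all transcripts. Kcnh4, with -2.47, and Kcnk2, with -2.29, were again near the low end there. Over the 38 members listed in both, control TE in the cohorts had a Spearman correlation of 0.67, across genes, which are not independent replicates.

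These TE levels rest on RNA-Seq libraries that differed strongly from each other in the first cohort. The log2 ratio of the 2 non-TG control RNA-Seq libraries had an SD of 1.90 over the members, and 21 of 38 members differed more than 2-fold between them. The median size of this ratio, regardless of sign, was 1.11 over members and 0.99 over all transcripts. In the footprinting libraries of that group the SD was 0.25 and 0 of 38 members differed more than 2-fold. The median size there was 0.21 over members and 0.16 over all transcripts. The ratio of the RNA-Seq libraries followed the GC content of the coding sequence, with a Spearman correlation of -0.89 across members in the non-TG control, -0.88 in GS/DA LRRK2 TG and -0.89 in GS LRRK2 TG. In WT the RNA-Seq SD was 0.54 and the correlation 0.27. Footprinting libraries of the second cohort differed as well, with an SD of 0.51 in WT and 13 of 44 members over 2-fold. In LRRK2 KO 14 of 44 were, beside 7 in WT and 5 in LRRK2 KO in RNA-Seq. The median size of the footprinting ratio was 0.76 in WT and 0.79 in LRRK2 KO over members, beside 0.38 and 0.29 over all transcripts. For RNA-Seq it was 0.45 and 0.49, beside 0.41 and 0.34.

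Kcnt2, whose coding sequence has 42.7% GC, shows the size of this difference. Its non-TG control RNA-Seq libraries held 849 and 25.5 normalized reads, its GS/DA LRRK2 TG libraries 866 and 24.3, and its GS LRRK2 TG libraries 982 and 7. One library of each group is high and the other is near the bottom, in controls and genotypes alike. Control TE of Kcnt2 was -2.05 against the first control library and 3.01 against the second. Kcnh4, with 59.3% GC, went the other way, at 2.01 and -1.95. Kcnj10 had a control TE of 3.84 against the first library and 1.05 against the second, above 1 in both. Kcnk2, with 52.1% GC, had -1.77 and -1.61, and Kcnh3 had -0.87 and -2.61. The low TE of Kcnk2 and Kcnh3 and the high TE of Kcnj10, Kcnip4 and Kcnj2 thus kept their sign against either library, while that of Kcnt2 and Kcnh4 did not. Kcnip4 stood at 1.12 and 2.90, and Kcnj2 at 0.90 and 2.49. In WT, Kcnj10 had a TE of -0.66, near the median of all transcripts there, so its high TE was limited to the first cohort.

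**Figure D1:**
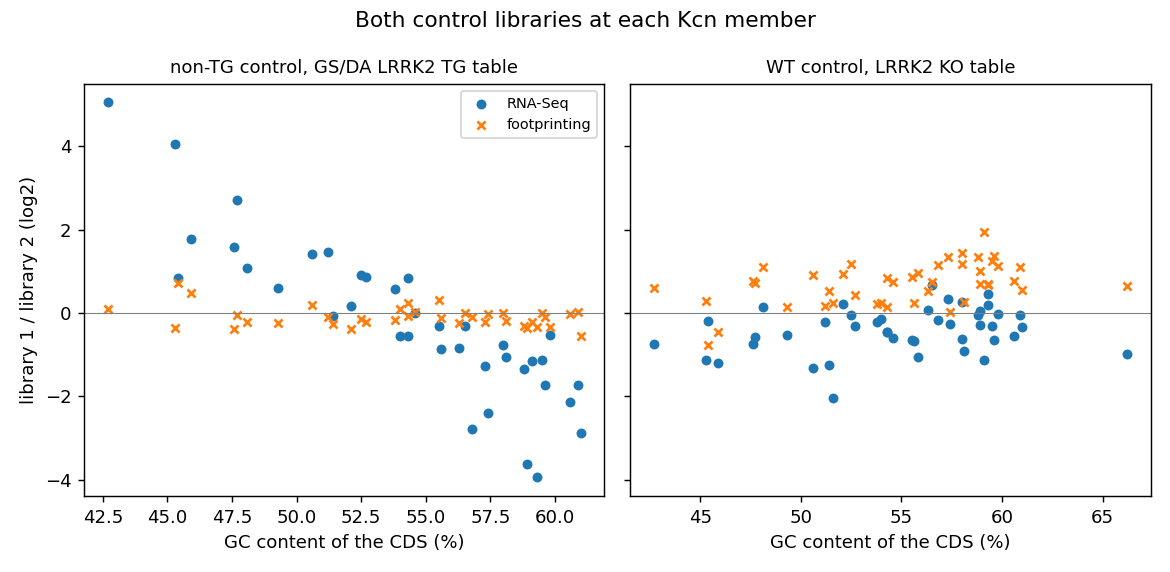
Log2 ratio of both control libraries (y axis) against GC content of the coding sequence in percent (x axis) for each Kcn member, RNA-Seq as circles and footprinting as crosses. In the non-TG control the RNA-Seq ratio falls with GC content (Spearman -0.89) while the footprinting ratios stay close to 0, and in WT the RNA-Seq ratio has an SD of 0.54.

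The members' leaders were longer and had lower predicted folding energies in the median, features that the symbol rule did not use. The deposited predicted folding energy of the 5′UTR had a median of -174.35 kcal/mol over the members and -91.15 over all transcripts of the transgenic tables, lower values meaning more stable folds. The median 5′UTR was 338 bases for members and 180 for all annotated genes of these tables. The energy is that of the whole 5′UTR and was not adjusted for length, so these medians do not show more folding per base. At least 1 ATG upstream of the start codon lay in 29 of 36 members with an annotated leader (80.6%), beside 50.7% of all genes. Not every member shares this, since 11 of the 36 leaders were shorter than the median of all genes and 9 of 38 folding energies lay above that of all transcripts. Kcnt1 and Kcna1 had the lowest folding energies, -965.03 and -963.15 kcal/mol, and Kcnj4 and Kcng1 the highest, -22.50 and -25.79. The energy is the lowest over isoforms and can belong to another transcript than the annotated leader, which for Kcnt1 has 20 bases. Their TE differences were small on both ends in GS LRRK2 TG, with -0.16 for Kcnt1, 0.14 for Kcna1, -0.17 for Kcnj4 and -0.10 for Kcng1. In GS/DA LRRK2 TG the same 4 genes had -0.09, -0.38, -0.08 and -0.13, Kcna1 being TE down there. In LRRK2 KO they had -0.22, 0.17, -0.19 and -0.14.

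The bases around the start codon are shown for members at both ends of control TE in the GS table, to set the start sites of well and poorly occupied messengers side by side. Each sequence gives 12 bases before the start codon, the start codon in capitals and the 6 bases after it, from the mm9 genome and annotation. Kcnj10 is not among them because no leader was annotated for it there. The control libraries of the GS table were not recovered. In the GS/DA table the low control TE of Kcnh4 did not hold against both control RNA-Seq libraries.
Kcnip4: agagcatagaggATGctgact
Kcnj2: ccagcggaagcaATGggcagt
Kcnh3: ccgccgcctaagATGccggcc
Kcnk2: cttggaataaggATGgcggcc
Kcnh4: gtacccggggccATGccggtc
A purine 3 bases before the start codon lay in 34 of 36 members (94.4%), beside 86.5% of all genes, and a G right after it in 14 of 36 (38.9%), beside 52.5%. In the genes shown, high and low TE are not separated by either position. Kcnip4 and Kcnj2 had control TE of 1.55 and 1.40 in that table, and Kcnh3, Kcnk2 and Kcnh4 had -2.52, -1.79 and -1.55.

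In the striatum with the G2019S transgene, the channel subunits as a group stood where all transcripts stood. The median footprinting change was -0.01 over the 38 members and 0.00 over all transcripts, the median RNA-Seq change -0.03 and -0.02, and the median TE difference 0.01 and 0.02. TE up held 1 member, Kcnj10, where 8.01% of all transcripts were called. TE down held 3 members, Kcnh5, Kcnh7 and Kcnt2, where 3.91% of all transcripts were called. Past the fold in footprints there were 0 members up (0.14% of all transcripts) and 0 down (0.198%). In RNA-Seq 1 member, Kcnt2, was past the fold upward (0.233%) and 0 were downward (2.72%). These are counts of 1 to 3 members, and no test could be run because the control libraries were not recovered.

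Kcnj10 (uc007dqj.1, chromosome 1, 174271341 to 174304216 in mm9), the potassium-buffering rectifier of glia, had footprints of 957 and 631 in GS LRRK2 TG and a control mean of 703. Its RNA-Seq values were 45.8 and 378 beside a control mean of 247, and the TE difference of the means was 0.40. The footprints lay on both sides of the control mean, and so did the RNA-Seq values.

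Kcnt2 (uc011wth.1, chromosome 1, 142142793 to 142508640) had footprints of 159 and 197 beside a control mean of 172, and RNA-Seq of 982 and 7 beside 320. Its TE difference was -0.58. Kcnh7, an ether-a-go-go related pore, had footprints of 188 and 217 beside 221, RNA-Seq of 434 and 5.6 beside a control mean of 197 and a TE difference of -0.29. Kcnh5, an ether-a-go-go pore, had footprints of 160 and 241 beside 194, RNA-Seq of 646 and 46.2 beside 261 and a TE difference of -0.36. In each, 1 RNA-Seq library was above the control mean and the other far below it. Without recovered control libraries these calls could not be checked library against like library. The footprints of Kcnt2 and Kcnh5 lay on both sides of the control mean and those of Kcnh7 below it.

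Among members with all means at 500 or above, the values in GS LRRK2 TG were small. Footprinting changes ran from -0.29 for Kcna4 and -0.19 for Kcnt1 to 0.07 for Kcnip3 and 0.10 for Kcnq5, a subunit of the M-current that restrains repetitive firing. RNA-Seq changes were lowest for Kcnd2, with -0.32, and Kcna4, with -0.25. They were highest for Kcnf1, with 0.10, and Kcnip3, with 0.08. The TE difference was highest for Kcnd2, with 0.23, and Kcnq5, with 0.20, and lowest for Kcnj4, with -0.17, and Kcnt1, with -0.16. Kcna4 footprints were 796 and 560 in the GS LRRK2 TG libraries beside a control mean of 830, below it in both.

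By role, the inward rectifiers had a median TE difference of 0.11 in GS LRRK2 TG and the calcium- or sodium-activated pores -0.04. The 17 voltage-gated pores had 0.02, the silent subunits -0.03, the auxiliary subunits -0.01 and the leak channels 0.01. Kcnn2 and Kcnn3, both small-conductance pores, had 0.36 and 0.15, with RNA-Seq changes of -0.23 and -0.30. No role stood more than 0.11 from 0.

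**Figure D2:**
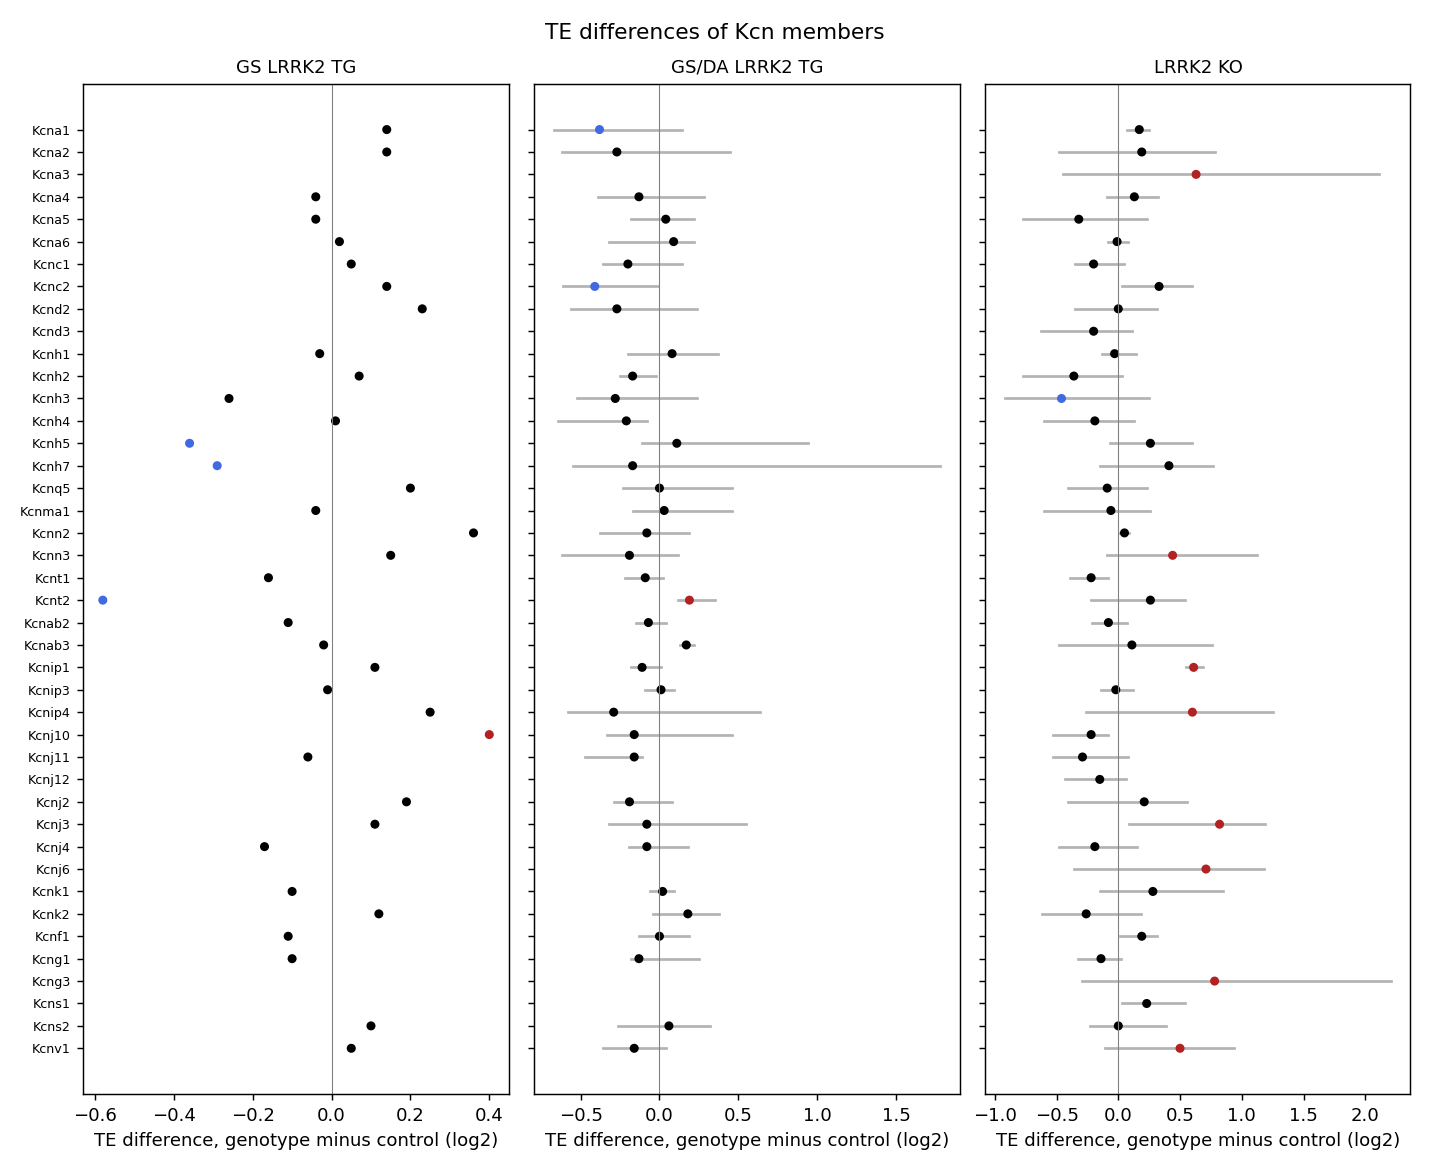
TE difference, genotype minus control on the log2 scale (x axis), for Kcn members ordered by role, a few left out, (y axis) in each comparison. Points are the differences of the group means, red for TE up and blue for TE down, and grey lines span the 4 combinations of library pairs where control libraries were recovered. In LRRK2 KO the points run from -0.46 for Kcnh3 to 0.82 for Kcnj3, and the grey line of Kcnip1 is short, from 0.55 to 0.69.

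In the striatum with the kinase-dead GS/DA transgene, RNA-Seq values of the members lay slightly above control and footprints near it. The median RNA-Seq change was 0.10 over members and 0.06 over all transcripts, and 31 of 38 members (81.6%) lay above 0, beside 64.7% of all transcripts. The median footprinting change was 0.02 beside -0.01, and the median TE difference -0.10 beside -0.05. Within library pairs the median RNA-Seq change of members was 0.09 in pair 1 and 0.03 in pair 2, beside 0.05 and -0.01 over all transcripts. The RNA-Seq median of members lay above 0 in both pairs and was smaller in pair 2. Above 0 were 30 of 38 members in pair 1 and 21 of 38 in pair 2.

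TE up held 1 member, Kcnt2, where 3.65% of all transcripts were called, and TE down held 2, Kcna1 and Kcnc2, where 7.36% were called. Past the fold, Kcnj3 was up in footprints (0.49% of all transcripts) and 0 members were down (0.326%). In RNA-Seq Kcnc2, Kcnh7 and Kcnj3 were up (2.46%) and 0 were down (0.257%). Kcnh7 RNA-Seq was 626 and 11.7 beside 409 and 24.5 in the controls, with opposite changes of 0.61 and -1.06 within pairs. Both footprinting libraries lay above both control libraries for 6 members (12% of all transcripts with recovered libraries), which were Kcna6, Kcnh1, Kcnh7, Kcnip3, Kcnj3 and Kcnt2. They lay below for Kcna4, Kcnh2 and Kcnj4 (12.2%). In RNA-Seq, Kcnn2 was above (1.79%) and Kcnk2 below (1.58%).

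Kcnj3 (uc008jru.1, chromosome 2, 55288381 to 55450556), the G protein-gated rectifier subunit that pairs with Kcnj6, had footprints of 332 and 265 in GS/DA LRRK2 TG and 213 and 187 in the controls. Both genotype libraries were higher, with log2 changes of 0.64 and 0.50 within pairs. Its RNA-Seq values were 324 and 72.1 beside 183 and 68, changes of 0.83 and 0.08, and its TE difference was -0.08. Footprints were higher by like amounts in both footprinting pairs, and RNA-Seq mainly in 1 of its pairs. In the GS table, the footprinting change of Kcnj3 was 0.05.

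Markers of cortical neurons moved with this comparison. Of 8 such markers 4 were listed, with Slc17a7 the most abundant and Neurod2, Lamp5 and Rorb among those not listed. Their summed footprints were 4335 and 2765 in GS/DA LRRK2 TG and 1792 and 1243 in the controls. Their summed RNA-Seq was 2599 and 4596 beside 1030 and 2432. Slc17a7 alone, the vesicular glutamate transporter of cortical projection neurons, had footprints of 2516 and 1577 beside 994 and 673. The median footprinting change was 1.18 over the 4 cortical markers and -0.21 over the 10 listed markers of spiny neurons. The part of tissue composition in the values of Kcnj3 and the other members was not tested.

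Kcnt2, the second sodium-activated pore, had footprints of 257 and 221 beside 212 and 199, with RNA-Seq of 866 and 24.3 beside 849 and 25.5. Its TE difference was 0.19, and 0.12 to 0.35 over the 4 combinations of pairs. The sign was positive in every combination, with a z score of 1.54 just past the threshold. Kcnab3, a beta subunit of Kcna channels, had a TE difference of 0.17 and likewise a positive sign in 4 of 4 combinations, without passing the threshold. These were the 2 of 38 members positive in all combinations, where 6.87% of all transcripts were.

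Kcnc2 (uc007hao.1, chromosome 10, 111708179 to 111903360), a fast delayed rectifier of interneurons, had RNA-Seq of 276 and 105 beside 164 and 91.4, and footprints of 206 and 178 beside 186 and 157. The groups overlapped in both assays, and each pair showed more messenger in the genotype, by 0.75 and 0.19. Its TE difference of -0.41 ran from -0.61 to -0.01 over the combinations. Kcna1 (uc009dvb.1, chromosome 6, 126586481 to 126595819) had RNA-Seq of 1523 and 614 beside 971 and 652. Its TE difference of -0.38 ran from -0.67 to 0.14, negative with RNA-Seq pair 1 and positive with pair 2. The TE difference kept a negative sign in 4 of 4 combinations for 4 of 38 members (11.1% of all transcripts), Kcnc2, Kcnh2, Kcnh4 and Kcnj11, and none of the last 3 was called.

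The members below control in this line include abundant channels. Kcna4 footprints were 791 and 1054 beside 1079 and 1147, changes of -0.45 and -0.12. Kcnj4 footprints were 1883 and 2175 beside 2182 and 2324, changes of -0.21 and -0.10. In each the higher genotype library came close to the lower control library. Kcnj2 had a footprinting change of -0.25 and Kcnd2 -0.19, with overlapping libraries. Within pairs the changes were -0.22 and -0.27 for Kcnj2 and -0.29 and -0.10 for Kcnd2. The leak channel Kcnk2 had RNA-Seq of 1692 and 1840 beside 2352 and 2104, changes of -0.48 and -0.19, with a footprinting change of -0.15.

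Among members with all means at 500 or above, Kcnf1 and Kcnh1 had the highest footprinting changes, 0.21 and 0.20, and Kcna4 and Kcnd2 the lowest. The highest RNA-Seq changes were 0.40 for Kcna1 and 0.22 for Kcnh3, and the lowest -0.34 for Kcnk2 and -0.14 for Kcna4. The highest TE differences were 0.18 for Kcnk2 and 0.08 for Kcnh1, and the lowest -0.38 for Kcna1 and -0.28 for Kcnh3. All 5 inward rectifiers had negative TE differences, from -0.19 to -0.08, with a median of -0.16, where 33.5% of all transcripts had positive ones. Over the combinations of pairs, Kcnj10, Kcnj2, Kcnj3 and Kcnj4 were each positive in 2 of 4. The voltage-gated pores had a median of -0.17, the auxiliary subunits -0.07 and the silent subunits -0.06. For the calcium- or sodium-activated pores the median was -0.08, and for the leak channels 0.10.

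With limma over all 8328 transcripts with recovered libraries, 0 of 38 members passed an adjusted p of 0.05 in footprints, RNA-Seq or TE (0% of all transcripts), and 0 passed an unadjusted p of 0.05. With library pairs as a block the adjusted count was 0 again, and the unadjusted count was 1 in footprints, Kcnj3, 2 in RNA-Seq, Kcnc2 and Kcnk2, and 0 in TE, beside 3.29%, 4.59% and 0.408% of all transcripts. With the pairs as a block and each assay fitted alone, choices made after seeing the data, limma called 38 transcripts in footprints (0.456%) and 0 in RNA-Seq, where 131 passed unadjusted. Unadjusted, 10 members passed in footprints, beside 14.2% of all transcripts, and 1 in RNA-Seq, beside 1.57%. The 1 member among the 38 called transcripts was Kcnj3, with a log2 change of 0.55 and SE 0.08 at an adjusted p of 0.0446, higher in 2 of 2 pairs. Without the block, each assay alone gave 0 members adjusted and 1 unadjusted in footprints (1.83% of all transcripts). Over all fits the adjusted p of the Kcnj3 footprinting change ran from 0.0446 to 1, with an SE of 0.18 under the block and 0.75 without it when both assays were fitted together.

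In the striatum of LRRK2 KO mice, the channel subunits had medians near those of all transcripts, and more members TE up than TE down. The median footprinting change was 0.02 over 44 members and 0.02 over all transcripts, the median RNA-Seq change 0.02 and 0.01, and the median TE difference 0.00 and 0.02. TE up held 8 members (18.2%), where 6.23% of all transcripts were called. They were Kcna3, Kcng3, Kcnip1, Kcnip4, Kcnj3, Kcnj6, Kcnn3 and Kcnv1. TE down held 1, Kcnh3, where 6.02% were called.

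The TE up count depended on the libraries. It was 1, 5, 5 and 10 over the 4 combinations of 1 footprinting and 1 RNA-Seq pair, where 5.76%, 6.47%, 5.87% and 5.89% of all transcripts were called, and no member was called in all 4. The count of 1, Kcnip1, came from pair 1 in both assays, and the count of 10 from pair 2 in both. With a minimum on all group means, given with the alternatives, 11 members were left and 1 of them, Kcnv1, was TE up, beside 6.38% of all transcripts. In RNA-Seq pair 1 the changes of the 8 members ran from -0.24 to 0.38, and in pair 2 from -1.64 to -0.28. The lower RNA-Seq means behind most of these calls thus lay in pair 2, which holds the shallower WT library, with 3131554 reads.

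Kcnj6 (uc008abk.1, chromosome 16, 94970873 to 95219303), a G protein-gated rectifier subunit, had RNA-Seq of 29.9 and 123 in WT and 30.1 and 45 in LRRK2 KO. The second WT library stands far above the other 3. Its footprints were 80.2 and 67.9 in WT and 63 and 56 in LRRK2 KO, lower in both pairs, and its TE difference was 0.71. Kcnip4 (uc008xju.1, chromosome 5, 48780743 to 49915940) had RNA-Seq of 123 and 282 beside 124 and 132, with a TE difference of 0.60. Kcnv1, a silent subunit, had RNA-Seq of 214 and 509 beside 217 and 315, with a TE difference of 0.50. In both, the second WT library was again the high one. Kcng3, a silent subunit at low level, had RNA-Seq of 65.8 and 57.9 beside 71.7 and 18.5, and a TE difference of 0.78 that rested on 14 reads in its lowest RNA-Seq library. Kcna3, a delayed rectifier, had RNA-Seq of 77.7 and 120 beside 93.6 and 50.3 and a TE difference of 0.63, from -0.45 to 2.11 over the combinations.

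Kcnj3 had the highest TE difference of the members, 0.82, and was positive in 4 of 4 combinations, from 0.09 to 1.19. Its footprints were 150 and 79.9 in WT and 187 and 78.3 in LRRK2 KO, and its RNA-Seq 92.7 and 230 beside 85.3 and 126. Its footprinting changes were 0.32 and -0.03 within pairs, and its RNA-Seq changes -0.12 and -0.87.

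Kcnip1 (uc007iko.2, chromosome 11, 33529339 to 33893152), a calcium-binding partner of Kcnd channels, differed alike in both pairs. Its RNA-Seq was 74.7 and 84.9 in WT and 63.4 and 68.8 in LRRK2 KO, without overlap. Its footprints were 30.4 and 52 in WT and 39.7 and 64.3 in LRRK2 KO, with changes of 0.39 and 0.31 within pairs and overlap between groups. The TE difference of 0.61 stayed between 0.55 and 0.69 over the combinations, on 39 footprint reads in each WT library. In the transgenic tables, with their own controls, the TE difference of Kcnip1 was 0.11 in GS LRRK2 TG and -0.11 in GS/DA LRRK2 TG.

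Kcnn3 (uc012cso.1, chromosome 3, 89324086 to 89471683), the small-conductance calcium-activated pore, had footprints of 71.6 and 49.3 in WT and 87.6 and 88.1 in LRRK2 KO. Both knockout libraries lay above both WT libraries. Its footprinting change of the means was 0.54, its RNA-Seq change 0.10 and its TE difference 0.44. With a pseudocount of 10 it was not called, and 7 members were TE up. Kcnn2, its relative, had footprinting changes of 0.39 and 0.37 and RNA-Seq changes of 0.35 and 0.30 within pairs, and a TE difference of 0.05. The Kcnn members thus lay higher in footprints in both footprinting pairs. RNA-Seq of Kcnn2 was higher in both RNA-Seq pairs, and that of Kcnn3 had changes of 0.38 and -0.28.

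Kcnh3 (uc011zzc.1, chromosome 15, 99055292 to 99073248), the single TE down member, had RNA-Seq of 998 and 1036 in WT and 922 and 1872 in LRRK2 KO. Its footprints were 195 and 90.6 in WT and 187 and 99.3 in LRRK2 KO. One knockout RNA-Seq library was high and the other was below WT, and the TE difference of -0.46 ran from -0.92 to 0.25 over the combinations.

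**Figure D3:**
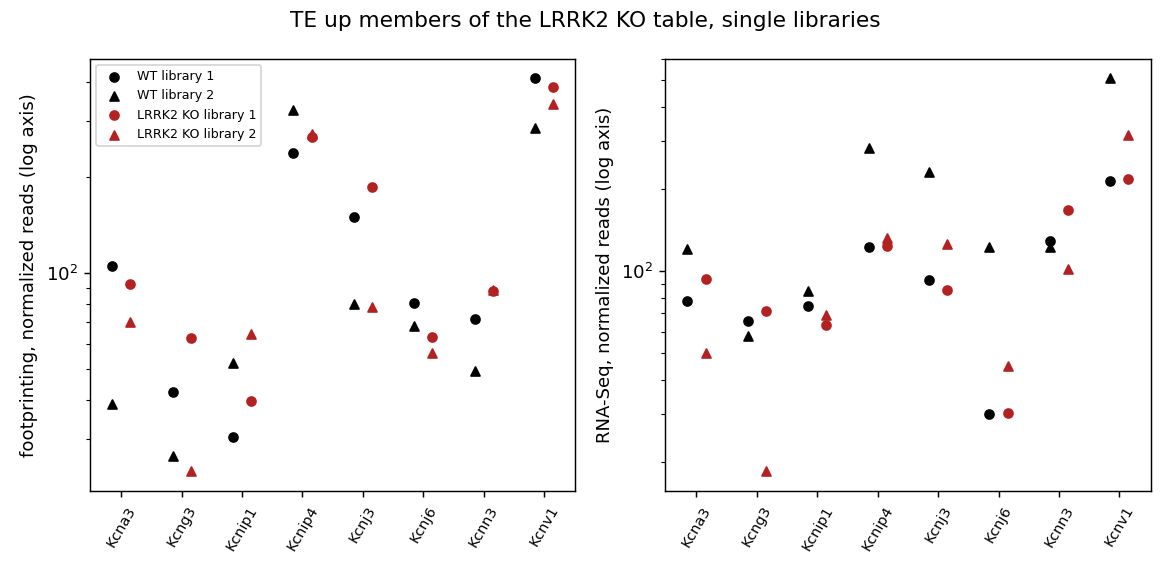
Normalized reads per library (log axis) of the 8 members called TE up in the LRRK2 KO table, footprinting on the left and RNA-Seq on the right, WT in black and LRRK2 KO in red. For Kcnj6 the second WT RNA-Seq library stands at 123 and the other 3 libraries between 29.9 and 45, while for Kcnip1 both WT libraries stand above both LRRK2 KO libraries.

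Past the fold in LRRK2 KO, Kcnn3 was up in footprints (1% of all transcripts) and 0 members were down (1.07%). In RNA-Seq Kcna5 and Kcnk2 were up (0.669%), and Kcnh7, Kcnip4, Kcnj3 and Kcnj6 were down (2.51%). Kcnn3 was the 1 member with both footprinting libraries above WT (6.21%), and Kcna6 and Kcnj6 lay below (6.4%). Both RNA-Seq libraries lay above WT for 7 members (7.05%), among them Kcna5, Kcng1, Kcnh4, Kcnj12, Kcnk2 and Kcnt1. They lay below for Kcnip1 (7.04%).

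Kcnk2 had RNA-Seq of 815 and 706 in WT and 919 and 1234 in LRRK2 KO, changes of 0.17 and 0.80, with footprinting changes of 0.18 and 0.35. Kcna5, a delayed rectifier, had RNA-Seq of 127 and 106 beside 137 and 210, changes of 0.11 and 0.99. In both genes each knockout library was above each WT library and pair 2 held most of the difference. Kcnab2, the 1 member with all means at 500 or above, had a footprinting change of -0.10, an RNA-Seq change of -0.02 and a TE difference of -0.08.

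By role in LRRK2 KO, 5 of 6 silent subunits had positive TE differences, that of Kcns2 rounding to 0.00, beside 53% of all transcripts, with a median of 0.21, and 2 of the 6, Kcng3 and Kcnv1, were TE up. Kcnf1 and Kcns1 alone among them were positive in all 4 combinations. The auxiliary subunits had a median of 0.11 with 2 of 5 TE up. The inward rectifiers had a median of -0.15 with 2 of 7 TE up, the 19 voltage-gated pores -0.03, the calcium- or sodium-activated pores 0.05 and the leak channels 0.01. The TE difference was positive in 4 of 4 combinations for 7 of 44 members (12.4% of all transcripts), Kcna1, Kcnc2, Kcnf1, Kcnip1, Kcnj3, Kcnn2 and Kcns1, and negative in all for Kcnj10 and Kcnt1 (11.5%).

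Cortical markers differed between single libraries here as well. Of the 8 markers 7 were listed and Lamp5 was not, with summed RNA-Seq of 3209 and 5330 in WT and 2632 and 4453 in LRRK2 KO, and Slc17a7 the most abundant. RNA-Seq means of all 7 were lower in LRRK2 KO, with a median change of -0.27 and a median TE difference of 0.28, and 2 of the 7 were TE up, Tbr1 with 0.87 and Rorb with 0.52. Single libraries differed in pattern, with RNA-Seq of Tbr1 at 244 and 660 in WT and 196 and 322 in LRRK2 KO, of Slc17a7 at 1899 and 3493 beside 1420 and 3306, and of Cux2 at 428 and 421 beside 445 and 259. Their part in these TE differences was not tested.

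With limma over 9515 transcripts, 0 of 44 members passed an adjusted p of 0.05 in footprints, RNA-Seq or TE (0%), and 0 passed unadjusted. With library pairs as a block, limma called 5 transcripts in footprints (0.0525%), 4 in RNA-Seq (0.042%) and 0 in TE. None was a member. Unadjusted, the blocked fit had 1 member in footprints, Kcnn3, 7 in RNA-Seq, Kcna5, Kcng3, Kcnh7, Kcnip4, Kcnj3, Kcnj6 and Kcnk2, and 2 in TE, Kcng3 and Kcnj3. Over all transcripts these unadjusted shares were 2.28%, 4.83% and 1.94%. With each assay alone and the block, 15 transcripts (0.158%) were called in footprints and 11 (0.116%) in RNA-Seq, with 0 members adjusted and 1 and 6 members unadjusted, beside 3.15% and 4.16% of all transcripts. Each assay alone without the block gave 0 members adjusted and 0 unadjusted.

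Proteins that anchor, cluster or modulate these channels were read from a list of 36 genes, of which 23 were listed in each table. TE up held 1 of the 23 in GS LRRK2 TG, 0 in GS/DA LRRK2 TG and 2 in LRRK2 KO, and TE down 1 in each table. Over all transcripts 8.01%, 3.65% and 6.23% were TE up and 3.91%, 7.36% and 6.02% TE down. The median TE difference was 0.03, -0.01 and 0.08. Akap5, the anchoring protein that brings kinases and calcineurin to M-current channels, had a TE difference of 1.23 in GS LRRK2 TG, -1.01 in GS/DA LRRK2 TG and 0.05 in LRRK2 KO. Its footprints differed little, by 0.06, 0.04 and 0.19, and its RNA-Seq changes were -1.18, 1.05 and 0.14. In the libraries of GS/DA LRRK2 TG, Akap5 RNA-Seq was 13540 and 971, beside 5823 and 1195 in the controls, and 3059 and 526 in GS LRRK2 TG. The high values thus lay in 1 library of each group, as for Kcnt2.

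Among the other partners with all means at 500 or above, the synaptic scaffold Dlg1 had the second highest TE difference in GS LRRK2 TG, 0.34, and -0.17 in LRRK2 KO. Dlg2, a related scaffold that clusters Kcna and Kcnj channels, had -0.32 in GS/DA LRRK2 TG. Calm3, one of the calmodulin genes whose product gates Kcnn and Kcnq channels, had -0.31 in GS LRRK2 TG and 0.13 in GS/DA LRRK2 TG. Vapb had -0.18 in GS LRRK2 TG, and Cntnap2, which places Kcna channels beside nodes of Ranvier, 0.10 in GS/DA LRRK2 TG. In LRRK2 KO the ubiquitin ligase Nedd4l, which acts on Kcnq channels, had 0.29 and the scaffold Dlg4 -0.16.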

How the data were processed

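3 deposited tables were read, which hold the striatal samples. Ventral midbrain libraries and a further footprinting library per group of the second cohort are in none of the columns read. Per the labels and the study's methods, the authors aligned reads to mm9 with TopHat2 2.0.11 and Bowtie2 2.2.2 after CASAVA 1.8, counted reads in coding sequence, and deposited one signal per group and assay, the mean of reads divided by DESeq 1.20 size factors. The deposited score is the predicted 5′UTR folding energy in kcal/mol, the lowest over isoforms. The deposited TE, TE difference and z score columns hold the authors' own comparisons and were not used, all such values being recomputed from the means with no pseudocount.

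Single libraries were recovered by writing each mean as whole reads of 2 libraries with fitted size factors. Differences between genotypes were fitted with limma 3.58.1 in R 4.3.3 on log2(recovered normalized reads + 10), a scale that understates changes of low genes, with genotype, assay and their interaction, and Benjamini-Hochberg adjustment over all transcripts. Python 3.11.15, numpy 2.4.6, pandas 2.3.3, scipy 1.17.1 and matplotlib 3.10.9 were used for the rest. The recovery and the fits were tested on simulated data. For the fits, 2-fold changes were planted in footprints only, with a pair difference that both groups shared. There the fit without pair block did not recover planted changes while the fit with it recovered most of them, so a count of 0 from the first says little. Changes in RNA-Seq or TE and smaller footprinting changes were not simulated, so the simulation does not show whether the fit with the block would find them.

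Named members were, per comparison, the 2 highest and 2 lowest in each measure with all means at 500 or above. To these were added the most footprinted of each subfamily, the 3 highest and lowest control TE, the 2 highest and lowest folding energies, a list by role, and the 2 highest and lowest partners. Not every gene this rule selects is described. Other members named were chosen after their values were seen. Members and lists were chosen with earlier results of these data known. Coding length, GC and leaders came from the mm9 annotation, by symbol, for all members. How reads shared between paralogs were counted is not stated.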

Additional observations from a re-analysis of the deposited data

How the results depend on the processing

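No paired analysis was possible because the deposited columns carry no replicate numbers; the pair block used in the text comes from pairs read from the values. In no alternative was a member called by limma at an adjusted p of 0.05 except under the block with each assay alone, an alternative chosen after seeing the data, where 1 member passed in GS/DA LRRK2 TG footprints. Adding 1 in place of 10, limma-trend and the lower minimum, each fitted without the pair block, gave 0 members in each measure. On simulated data the fit without the block did not recover planted footprinting changes, so these counts of 0 say little. Each recovered library was also left out in turn, again without the block. A library left alone in its group was taken to vary like the others.

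A lower and a higher minimum on all 4 group means were tried. In GS LRRK2 TG, the lower minimum gave 0 TE up and 1 TE down, Kcnh3 (7.98% and 3.79% of all transcripts), and the higher minimum gave 0 and 0 (7.96% and 3.27%), from fewer transcripts. A z cutoff of 1 gave 2 and 5 (15.6% and 12.9%), a cutoff of 2 gave 0 and 1 (3.71% and 1.03%), and a z score from median and MAD gave 2 up (11.6%). In GS/DA LRRK2 TG, the lower minimum gave a median footprinting change of 0.00 and 1 TE down (7.58%), and the higher minimum gave -0.03 and 1 (7.35%). Under both the 1 TE up member was Kcnk2 (3.19% and 2.47%) and no longer Kcnt2. A pseudocount of 10 gave 2 TE up (3.59%). A z cutoff of 1 gave 4 and 6 (11.5% and 13.3%), a cutoff of 2 gave 0 and 0 (1.12% and 4.09%), and median and MAD gave 3 and 6 (5.94% and 12.2%). Centring on all transcripts gave a median RNA-Seq change of 0.04, and the geometric mean of both libraries, chosen after seeing the data, gave 3 TE up and 5 TE down (5.48% and 5.98%). In LRRK2 KO, the lower minimum gave a median RNA-Seq change of -0.02, a median TE difference of 0.13, 1 TE up and 0 TE down (6.38% and 6.04%). The higher minimum left 1 member and gave medians of -0.10, -0.02 and -0.08 in footprints, RNA-Seq and TE, with 0 and 0 called (6.7% and 6.83%). A pseudocount of 10 gave 7 TE up (6.47%), without Kcnn3. A z cutoff of 1 gave 10 TE up and 5 TE down (14.3% and 14.8%), and a cutoff of 2 gave 6 and 0 (2.9% and 2.18%). Median and MAD gave 9 and 1 (7.6% and 7.19%), and the geometric mean 6 and 0 (5.86% and 6.29%). The cause was not tested where the alternative does not itself set the number of transcripts or the threshold.

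With 1 footprinting and 1 RNA-Seq library per group (in GS LRRK2 TG, against the pooled control mean), the median footprinting change ran from -0.06 to 0.03 in GS LRRK2 TG, 0.01 to 0.04 in GS/DA LRRK2 TG and -0.01 to 0.07 in LRRK2 KO. The median RNA-Seq change ran from -0.15 to -0.01, 0.03 to 0.09 and -0.03 to 0.01. The median TE difference ran from -0.25 to 0.25, -0.12 to 0.04 and -0.01 to 0.06. TE up counts ran from 3 to 5, 0 to 4 and 1 to 10, and TE down counts from 0 to 5, 1 to 5 and 0 to 3. Over all transcripts TE up ran from 7.92% to 9.41%, 4% to 7.69% and 5.76% to 6.47%, and TE down from 0.189% to 2.1%, 2.98% to 7.61% and 5.8% to 6.16%.

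In GS LRRK2 TG a single library stands against a control mean whose libraries were not recovered, so a change of sign there is no test of a call. Kcnh5 ran from -1.59 to 2.81, Kcnh7 from -1.37 to 5.11, Kcnj10 from -0.77 to 2.88 and Kcnt2 from -1.73 to 5.71. In the other tables TE differences changed sign for 8 called members. In GS/DA LRRK2 TG, Kcna1 ran from -0.67 to 0.14. In LRRK2 KO, Kcna3 ran from -0.45 to 2.11, Kcng3 from -0.29 to 2.21, Kcnh3 from -0.92 to 0.25, Kcnip4 from -0.26 to 1.25, Kcnj6 from -0.36 to 1.18, Kcnn3 from -0.09 to 1.12 and Kcnv1 from -0.11 to 0.94. Kcnc2 and Kcnt2 in GS/DA LRRK2 TG and Kcnip1 and Kcnj3 in LRRK2 KO kept their sign. The cause was not tested. The lowest member value in a single RNA-Seq library was 4 reads in GS LRRK2 TG, 13 in GS/DA LRRK2 TG and 14 in LRRK2 KO, and the lowest footprinting value was 15, in LRRK2 KO. In GS LRRK2 TG, the positive TE differences of Kcnh7 and Kcnt2 come from the RNA-Seq library in which they had 4 and 5 reads.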

Other observations

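Outside the comparisons, the libraries of one group differed in markers of neighbouring tissue. The GS LRRK2 TG footprinting libraries held 575 and 2483 summed normalized reads of the 4 listed cortical markers, Slc17a7 with 258 and 1425. Ttr, the transport protein made by choroid plexus, had 1193 and 17056 footprints in the controls of the GS/DA table and 5162 and 1137 in the genotype. Of the 7 choroid plexus markers 2 were listed, Ttr and Clic6, and Folr1, Kl, Aqp1, Sostdc1 and Otx2 were not. Kcnj13 and Kcne2, channel genes of that epithelium, were not listed in any table.

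Choroid plexus markers had a median footprinting change of -1.38 in GS LRRK2 TG, -0.94 in GS/DA LRRK2 TG and -0.03 in LRRK2 KO. Cortical markers had -0.23, 1.18 and 0.01, and in GS LRRK2 TG a median RNA-Seq change of -0.33. The median footprinting changes of the other lists follow. Astrocyte markers, all 6 listed, had 0.07 in GS LRRK2 TG, 0.09 in GS/DA LRRK2 TG and -0.12 in LRRK2 KO. In the same order, oligodendrocyte markers had 0.20, 0.05 and -0.04, and the 5 listed interneuron markers 0.09, 0.03 and 0.03. The 3 listed microglial markers had 0.07, 0.15 and 0.29, and the 3 listed blood genes -0.15, -0.32 and -0.64. Spiny neuron markers had -0.07, -0.21 and 0.11. Kcnj10, the glial rectifier, had 0.18, 0.11 and -0.14.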
